A study of Mus musculus with 6 samples.

Results

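The genes described here are 10 markers of natural killer (NK) cells and cytotoxic lymphocytes: Gzma, Gzmb, Gzmc, Prf1, Nkg7, Klrd1, Klrb1c, Ncr1, Eomes and Il2rb. They were taken by name, from a list chosen with earlier results of these data known, and all 10 were found among the 24077 genes of the single-cell table and the 30828 genes of the spatial tables. Uteri came from 12-month-old CD-1 mice that had received corn oil (CO) or the synthetic estrogen diethylstilbestrol (DES, 1 mg/kg/day) by injection on neonatal days 1 to 5. CO mice were collected in estrus, and DES mice were in persistent estrus, so all groups were in estrus when collected. Single-cell RNA sequencing used 1 CO library, pooled from 2 mice, and 1 DES library, pooled from 4 mice. Both were made from uterine horns dissociated with trypsin. Spatial transcriptomics used 2 CO sections (CO A, CO B) and 2 DES sections (DES A, DES B), each from 1 mouse. Before selection, a pathologist read frozen tissue for luminal and glandular epithelium in both groups and for uterine adenocarcinoma in DES. The blocks chosen were then cored to areas of interest, and the study describes cancer regions in its DES sample. Section contrasts therefore compare chosen areas of tissue and not whole uteri, and the part of cancer in them was not tested. The single-cell libraries therefore had no replicate, and their differences are reported with counting intervals only. Section CO B had a fold in the tissue, and the study found clusters hard to identify in DES B.

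NK cells are innate lymphocytes that kill target cells by releasing granules, and the uterus has resident NK cells of its own. The granules carry perforin (Prf1), which opens the target's membrane, and granzymes (Gzma, Gzmb, Gzmc), the serine proteases that enter through it, while Nkg7 is a granule membrane protein. Klrd1 (CD94), Klrb1c (NK1.1) and Ncr1 (NKp46) are surface receptors, Eomes is a T-box transcription factor of NK cell development, and Il2rb is the chain shared by the receptors for interleukins 2 and 15. Cytotoxic T cells use the same granule genes, so the genes of the CD3 complex (Cd3d, Cd3e, Cd3g), which mark T cells, are given beside the 10 genes.

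In the mm10 assembly (GRCm38, GENCODE gene models), Gzmb and Gzmc are the close neighbours among the 10 genes. Gzmb is at chr14:56258838-56262260 and Gzmc at chr14:56231441-56234656, both on the minus strand and 24.2 kb apart, in a run of granzyme genes that goes on through Gzmf, Gzmn, Gzmg, Gzmd and Gzme. Gzma is at chr13:113093825-113100981 (minus strand), Prf1 at chr10:61297833-61304680 (plus), Nkg7 at chr7:43437073-43438249 (plus) and Ncr1 at chr7:4337724-4345164 (plus). Klrd1 is at chr6:129591782-129598775 (plus) and Klrb1c at chr6:128778485-128789215 (minus), Eomes at chr9:118478212-118486132 (plus) and Il2rb at chr15:78479256-78495271 (minus). Klrb1c overlaps Gm44511 on the same strand and shared 11.4% of the 90-base windows near its 3′ end with Gm44511 or Klrb1a, so its counts are uncertain. Eomes overlaps the antisense gene Gm33460. Eomes and the other 8 genes shared none of these windows with another gene.

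The 250 bases upstream of the members' RefSeq start sites (GRCm38.p6) were read for the core letters bound by T-box factors, the family of Eomes (GTGTGA), and by Runx factors (TGTGGT), on both strands. RefSeq promoters were found for 8 genes, all but Klrd1 and Il2rb. The Runx letters were in 7 of the 8, against 14.05% of 32851 promoters of the same length, and the T-box letters in 3, against 12.3%. Gzmb, Ncr1 and Nkg7 held both, against 2.05% of promoters, and Eomes held neither. A match of these letters is a description of the sequence and not a site of binding. The upstream sequences of the 3 granzyme genes and of Ncr1 are shown because Gzma, Gzmb and Ncr1 passed the section tests below and Gzmc differed most between sections, with the matched letters in capitals (the complement, TCACAC or ACCACA, where the match is on the other strand).
Gzma, chr13:113100982-113101231, minus strand: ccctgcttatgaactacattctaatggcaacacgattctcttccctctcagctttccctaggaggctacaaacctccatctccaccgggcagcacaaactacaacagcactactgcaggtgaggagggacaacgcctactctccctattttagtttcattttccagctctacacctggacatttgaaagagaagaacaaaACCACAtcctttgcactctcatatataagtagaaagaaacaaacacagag
Gzmb, chr14:56262335-56262584, minus strand: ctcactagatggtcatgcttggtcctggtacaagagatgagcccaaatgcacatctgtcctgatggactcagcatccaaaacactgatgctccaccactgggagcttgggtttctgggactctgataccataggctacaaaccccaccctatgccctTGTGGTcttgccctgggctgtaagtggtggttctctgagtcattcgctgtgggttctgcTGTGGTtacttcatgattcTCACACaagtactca
Gzmc, chr14:56234658-56234907, minus strand: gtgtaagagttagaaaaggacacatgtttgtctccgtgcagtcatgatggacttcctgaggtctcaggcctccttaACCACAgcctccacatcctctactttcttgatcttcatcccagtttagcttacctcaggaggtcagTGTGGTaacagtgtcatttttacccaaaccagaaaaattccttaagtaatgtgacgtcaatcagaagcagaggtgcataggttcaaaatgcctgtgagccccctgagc
Ncr1, chr7:4337474-4337723, plus strand: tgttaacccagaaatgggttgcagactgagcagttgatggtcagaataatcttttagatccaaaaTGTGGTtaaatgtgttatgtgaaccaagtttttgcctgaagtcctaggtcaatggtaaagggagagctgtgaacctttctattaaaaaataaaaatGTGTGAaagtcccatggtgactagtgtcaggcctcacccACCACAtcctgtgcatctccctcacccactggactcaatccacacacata
Gzma held 1 Runx match, starting 50 bases before the start site. Gzmb held 2 Runx matches, at 93 and 34 bases before the start, and 1 T-box match at 15 bases. Gzmc held 2 Runx matches, at 174 and 108 bases, and no T-box match. Ncr1 held 2 Runx matches, at 185 and 50 bases, with a T-box match between them at 89 bases.

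The CO single-cell library held 32387 cells, of which 12253 carried a cell type from the study's annotation, and the DES library held 16312 cells, of which 9701 did. Annotated lymphocytes numbered 423 in CO (3.45% of annotated cells, median 4033 UMIs, the unique molecular identifiers that count RNA molecules) and 239 in DES (2.46%, median 5599 UMIs). Cell types of the stroma were captured unequally: stromal cells numbered 1326 in CO and 1 in DES, and endothelial cells 341 and 5. The study describes pericytes too as largely missing from DES. It proposes that matrix deposited in the DES stroma kept such cells from being isolated alive. The part of unequal capture in the lymphocyte values was not tested. A set of 180 cell barcodes occurred in both libraries, none of them a lymphocyte in both. Without those barcodes Gzma in lymphocytes was 504.2 and 301.1 counts per 1000000 (CPM) in CO and DES, against 503.2 and 300.1 CPM with them. The sections held 1357 to 1834 spots and 9117099 to 12506177 UMIs. Markers fixed for other cell types differed between the section groups: the summed level of 7 macrophage and dendritic cell markers was 506.8 and 952.9 CPM in CO and 2982 and 3493 CPM in DES, that of 6 B and plasma cell markers 47.1 and 126.1 CPM in CO and 541.4 and 903.2 CPM in DES, and that of 5 muscle markers 13344.6 and 14168.2 CPM in CO and 3077 and 3458 CPM in DES. The 6 stromal markers summed to 2467 and 2463 CPM in CO and 1152 and 773.9 CPM in DES, and the 3 endothelial markers to 62.7 and 97.2 CPM in CO and 40.4 and 42.6 CPM in DES. None of those muscle or macrophage markers was at 0 in any section. The part of these differences in the results for the 10 genes was not tested.

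In the single cells, the 10 genes were largely genes of lymphocytes. Their summed level was 1418 CPM (95% exact Poisson interval 1369 to 1468) in CO lymphocytes and 833.9 CPM (788.1 to 881.6) in DES lymphocytes. No other annotated type exceeded 5.67 CPM in CO, the value of pericytes, which rested on 2 UMIs, or 1.35 CPM in DES. CO lymphocytes held 49.0% of the library's 6510 UMIs of these genes, and DES lymphocytes 35.9% of 3457. Cells with no annotated type held most of the rest, 44.4% in CO and 56.7% in DES. In the DES library, 39 of the 6611 cells with no type carried UMIs of at least 3 of the 10 genes and held 86.7% of that group's UMIs, against 24 such cells among annotated lymphocytes. The corresponding CO counts were 83 cells with no type and 78 lymphocytes. Counts of these genes within annotated lymphocytes thus leave out a larger share of the DES signal than of the CO signal.

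Epithelial cells held few of these UMIs, and their pattern differed by library. In CO epithelium 10 of 2583 cells carried at least 3 of the 10 genes and held 170 of the 237 UMIs, and 9 of these 10 cells also had UMIs of Ptprc, the pan-leukocyte marker CD45. In DES epithelium 1 of 5255 cells did. Gzma nevertheless reached 172 UMIs there, spread over 161 cells, of which 152 had 1 UMI, while Nkg7 had 14 UMIs and Gzmb 8. In DES lymphocytes the same genes had 447, 304 and 114 UMIs. The Gzma level was 0.976 CPM (0.836 to 1.13) in DES epithelial cells and 0.201 CPM (0.107 to 0.344) in DES mesothelial cells, which should lack the gene. In cells thinned to 2000 UMIs, 0.210% of DES epithelial cells (exact Clopper-Pearson interval 0.105 to 0.376%) and 0.0524% of mesothelial cells (0.00635 to 0.189%) had a Gzma UMI, and these intervals overlap. The unthinned shares were 3.06% and 0.339%, at median depths of 21900 and 12329 UMIs.

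Within annotated lymphocytes each of the 10 genes had a lower level in the DES library than in the CO library. The summed level was 0.588 times the CO level (95% exact interval 0.550 to 0.628). A 2-fold difference was reached by 4 of the 10 genes, all lower in DES (Ncr1, Eomes, Gzmc and Klrb1c), and by none in the other direction. For Gzmc the share of lymphocytes with a UMI was not lower in DES, at 1.89% in CO and 2.09% in DES without thinning. As a mean over cells Gzmc was at -0.78 on the log2 scale and Gzma at -1.14, so Gzma took its place among the 4, and over all cells of each library Klrd1 (-1.09) and Il2rb (-1.07) also passed, making 6. Among 8367 genes with at least 20 UMIs in the lymphocytes of either library, 5.65% were at least 2-fold lower in DES and 5.69% at least 2-fold higher. The median log2 ratio, DES over CO, was -0.79 over the 10 genes and 0.14 over all 8367. With 1 library per treatment these values compare libraries and not treatments. The cells without a cell type in the annotation went the other way, with the 10 genes at 17.0 CPM (16.4 to 17.7) in CO and 46.3 CPM (44.3 to 48.4) in DES. Over all of those cells a UMI of Ncr1 was seen in 0.457% in CO and 0.469% in DES. Thinning to 2000 UMIs left out 3117 of the 6611 DES cells and none of the 20134 CO cells, and Ncr1 was then seen in 0.273% (0.206 to 0.355%) in CO and 0.572% (0.35 to 0.883%) in DES.

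Among the granule genes, Gzma was the most abundant, at 503.2 CPM in CO and 300.1 CPM in DES (ratio 0.596, 0.533 to 0.666). Gzmb was at 121.5 and 76.5 CPM (0.630, 0.502 to 0.787), Prf1 at 48.9 and 31.6 CPM (0.645, 0.448 to 0.915) and Nkg7 at 266.0 and 204.1 CPM (0.767, 0.666 to 0.882). Gzmc was the scarcest of them, with 55 UMIs in CO and 12 in DES (24.5 and 8.06 CPM, ratio 0.329, 0.161 to 0.622). The interval of Gzmc did not reach that of Nkg7, and those of Gzma, Gzmb and Prf1 overlapped one another. Such intervals cover counting error over UMIs only, and the 12 DES UMIs of Gzmc came from 5 cells. As a mean over cells its log2 ratio was -0.78, against -1.60 here, so its separation from Nkg7 is uncertain.

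Among the receptors the ratio was lowest for Ncr1 and highest for Il2rb. Ncr1 was at 133.5 CPM in CO and 41.6 CPM in DES (ratio 0.312, 0.233 to 0.411), and Klrb1c at 61.8 and 28.9 CPM (0.467, 0.324 to 0.662). Klrd1 was at 118.3 and 68.5 CPM (0.579, 0.456 to 0.730) and Il2rb at 117.9 and 68.5 CPM (0.581, 0.458 to 0.733). The intervals of both lay above that of Ncr1. They cover counting error over UMIs only, and the 62 DES UMIs of Ncr1 came from 14 cells, 3 of which held 24. The transcription factor Eomes had 50 UMIs in CO and 9 in DES, or 22.2 and 6.04 CPM (0.272, 0.117 to 0.558).

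**Figure D1:**
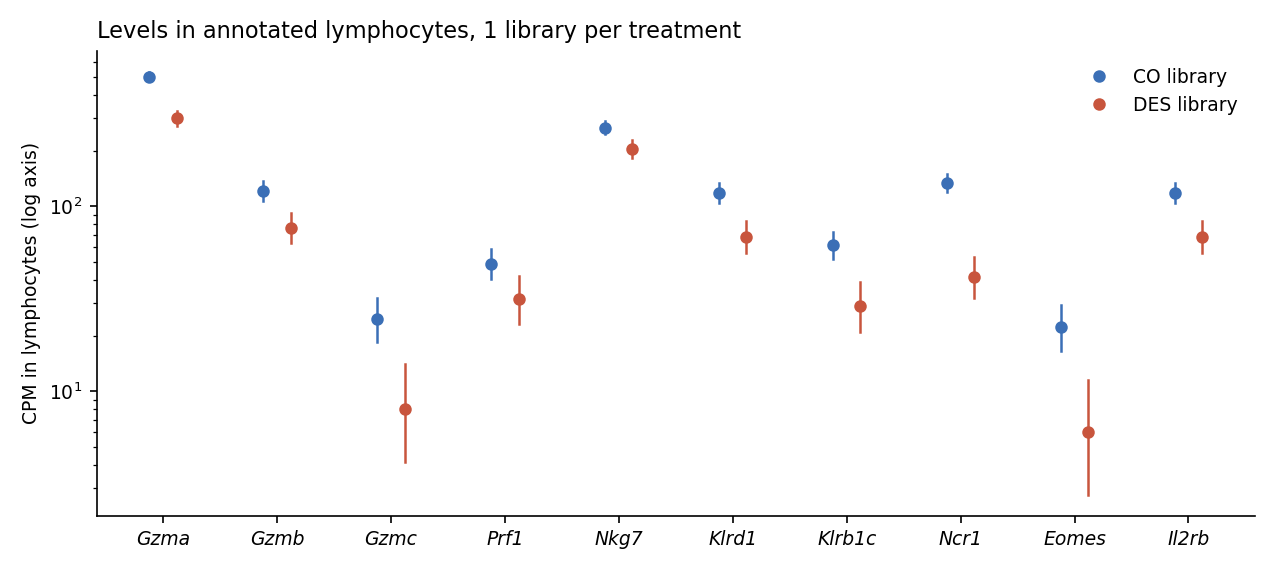
Level of each gene in annotated lymphocytes (CPM, log axis) in the CO library (blue) and the DES library (red), with exact Poisson 95% intervals that cover counting error only. Every gene is lower in DES, least so for Nkg7 (266.0 against 204.1 CPM), while Ncr1 (133.5 against 41.6 CPM) and Eomes (22.2 against 6.04 CPM) are further apart.

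Other contents of the lymphocyte group differed between the libraries too. Immunoglobulin genes and Jchain took 13.7% of CO and 1.23% of DES lymphocyte UMIs, and with them left out of the totals the log2 ratio of the summed level was -0.96 against -0.77 with them. The 7 macrophage markers summed to 7121 CPM in CO and 12828.8 CPM in DES lymphocytes, and the 14 T cell markers to 939.2 and 1048 CPM. Over all cells of each library, typed or not, the log2 ratio of the 10 genes was -0.62, and that of Gzma was -0.24. The part of the annotation in the lymphocyte ratios was not tested.

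Cells were then divided by whether they held a UMI of an NK receptor (Ncr1 or Klrb1c) and of a CD3 gene, after thinning every lymphocyte to 2000 UMIs, which left out 9 DES cells. Cells with an NK receptor and no CD3 UMI made up 13.7% of CO lymphocytes (58 of 423, interval 10.6 to 17.4%) and 3.04% of DES lymphocytes (7 of 230, 1.23 to 6.17%). Cells with CD3 and no NK receptor made up 20.8% (17.0 to 25.0%) and 23.0% (17.8 to 29.0%). Cells with both made up 1.42% (0.522 to 3.06%) and 3.04% (1.23 to 6.17%). The intervals of the 2 libraries were apart for an NK receptor alone and overlapped for the classes with CD3. They were also apart for cells with neither but with a B cell gene, at 15.6% (12.3 to 19.4%) in CO and 7.39% (4.36 to 11.6%) in DES. Ncr1 UMIs were seen in 12.3% of thinned CO and 4.35% of thinned DES lymphocytes and Klrb1c UMIs in 10.2% and 4.78%, while in mesothelial cells no member exceeded 0.0437% in CO or 0.0524% in DES. All these class shares cover annotated lymphocytes only. Cells with no annotated type, which held 44.4% of the CO and 56.7% of the DES UMIs of the 10 genes, were not divided. The part of the annotation in the class shares was not tested.

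In the cells with an NK receptor and no CD3, Gzma, Gzmb, Prf1 and Nkg7 were at higher levels in the DES than in the CO library. Without thinning, 48 CO and 8 DES lymphocytes had an NK receptor and no CD3. Gzma was at 4219 CPM (3951 to 4500) in these CO cells and 9476 CPM (8577 to 10442.5) in these DES cells, Gzmb at 438.8 and 1327 CPM, Prf1 at 374.8 and 768.3 CPM, and Nkg7 at 1554 and 2934 CPM. Klrd1 was at 639.9 and 651.9 CPM and Il2rb at 470.8 and 512.2 CPM. The DES levels rest on 8 cells of 1 library. Over all 239 DES lymphocytes, the 3 cells highest for each gene held 317 of 447 Gzma UMIs (70.9%, with 178 in 1 cell), 57 of 114 Gzmb UMIs and 27 of 47 Prf1 UMIs. Gzmc had 6 UMIs in these CO cells and 1 in these DES cells (27.4 and 23.3 CPM). Eomes had 28 UMIs in these CO cells (128.0 CPM, 85.0 to 185.0) and 3 in these DES cells (69.9 CPM, 14.4 to 204.1), and the intervals overlap.

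Most Gzmc came from another class. Cells with both an NK receptor and CD3 UMIs, 25 in CO and 9 in DES, held 89.1% of the Gzmc UMIs of CO lymphocytes and 83.3% of those of DES lymphocytes, at 313.9 and 199.9 CPM. These UMIs came from few cells: 8 CO lymphocytes had a Gzmc UMI, and 3 of them held 38 of the 55 UMIs, while 5 DES lymphocytes had one, and 3 of them held 10 of the 12. The class itself depends on depth, since thinning to 2000 UMIs left 6 CO and 7 DES cells in it. Without thinning, cells with both also held 44.7% and 33.3% of the Gzmb UMIs. Gzma lay in the other class, with 81.6% of its CO and 91.1% of its DES lymphocyte UMIs in the cells with an NK receptor alone, and so did Prf1 (74.6% and 70.2%). Doublets were not tested for among these cells. Cells with CD3 and no NK receptor held 4.42% of the Gzma UMIs in CO (50 UMIs, in 3 cells) and 0.224% in DES. Their share of Klrd1 was 5.64% in CO and 2.94% in DES. For Gzmb it was 1.83% in CO and 14.9% in DES, for Nkg7 10.5% and 18.75%, and for Il2rb 12.45% (33 UMIs) and 40.2% (41 UMIs).

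**Figure D2:**
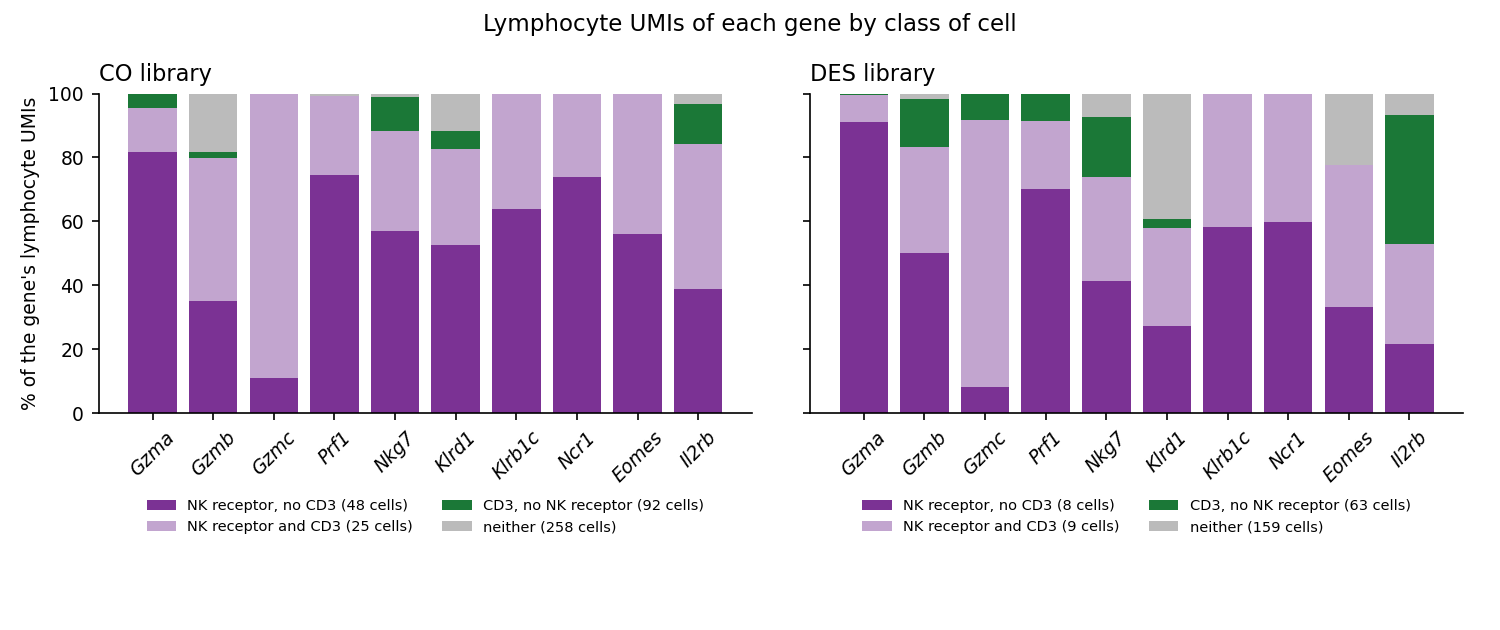
Share of each gene's lymphocyte UMIs (percent) held by 4 classes of cell, in the CO library (left) and the DES library (right), with the number of cells of each class in the key. Gzma and Prf1 lie mostly in cells with an NK receptor and no CD3 (81.6% and 74.6% in CO), and Gzmc in cells with both (89.1% in CO). Ncr1 and Klrb1c define the classes, so their bars follow from the division.

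In the sections, all 10 genes were lower in both DES sections than in both CO sections. Their summed level was 52.3 and 49.9 CPM in CO A and CO B, and 8.56 and 15.2 CPM in DES A and DES B. Section levels that did not overlap and were lower in DES were seen for 10 of 10 members and for 18.4% of the 16982 genes with at least 5 UMIs, while 40.6% of those genes did not overlap and were higher in DES. In edgeR's quasi-likelihood test of UMIs summed per section (2 against 2), 9 of the 10 genes passed the filter on low counts, all but Eomes, and 2 were called lower in DES at an adjusted p under 0.05 (Gzmb and Ncr1), against 2.63% of 14098 genes called lower and 2.67% called higher. Fewer cells of a type and less RNA per cell cannot be told apart in such sums.

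Gzma had 126 and 117 UMIs in the CO sections, against 7 for DES A and 39 for DES B. The DES sections differed from each other by more than the CO sections did, and the log2 fold change, DES against CO, of -2.31 (SE 0.72) did not pass the test (edgeR adjusted p = 0.140). Gzmb had 87 and 86 UMIs in the CO sections and 4 and 9 in the DES sections. It was lower in DES by the test, with a log2 fold change of -3.62 (SE 0.47, edgeR adjusted p = 0.0282).

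Gzmc was the member that varied most between CO sections, with 113 UMIs in CO A and 25 in CO B against 2 in DES A and 1 in DES B. Its pooled CO level was 37.1 times the DES level (exact interval 12.4 to 182.2, counting error only), and it did not pass the test (log2 fold change -5.28, edgeR adjusted p = 0.0598). This fold depended on the CO section: the log2 fold change was -3.92 without CO A and -5.96 without CO B. Each of those fits holds 1 CO section, with the spread taken from the DES sections alone, so their tests are not read for this gene. The granule genes Prf1 and Nkg7 did not pass the main test either. Prf1 had 66 and 42 UMIs in CO and 4 and 15 in DES (log2 fold change -2.39, SE 0.65, edgeR adjusted p = 0.110). Nkg7 had 47 and 64 UMIs in CO and 17 and 20 in DES (log2 fold change -1.49, SE 0.39, edgeR adjusted p = 0.105).

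Of the receptors, Ncr1 had 42 and 57 UMIs in CO and 4 and 5 in DES, a log2 fold change of -3.34 (SE 0.49, edgeR adjusted p = 0.0338). Il2rb, the most abundant receptor, had 100 and 93 UMIs in CO and 19 and 38 in DES (log2 fold change -1.66, SE 0.40, edgeR adjusted p = 0.0878). Klrd1 had 40 and 31 UMIs in CO and 8 and 12 in DES, with a log2 fold change of -1.71 (SE 0.44, edgeR adjusted p = 0.101). For Klrb1c the 25 UMIs of each CO section stood against 11 and 8 in DES (log2 fold change -1.28, SE 0.46, edgeR adjusted p = 0.179). Eomes, with 8 and 10 UMIs in CO and 2 and 3 in DES, was too sparse to be tested, and its pooled level was 2.91 times higher in CO (1.04 to 10.0).

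With a single DES section the fits, in which that section was assumed to vary like the CO sections, called 0 of 14657 genes lower without DES A and 0 of 14708 without DES B, so the absence of calls among the members says nothing about these genes. The log2 fold change of Gzmb was -3.19 without DES A and -4.29 without DES B, and that of Ncr1 -3.22 and -3.49. In DES B, 1 spot of 4908 UMIs held 20 UMIs of the 10 genes, among them 10 of that section's 39 Gzma UMIs and 5 of its 15 Prf1 UMIs. Without that spot the summed level of DES B was 13.2 CPM.

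**Figure D3:**
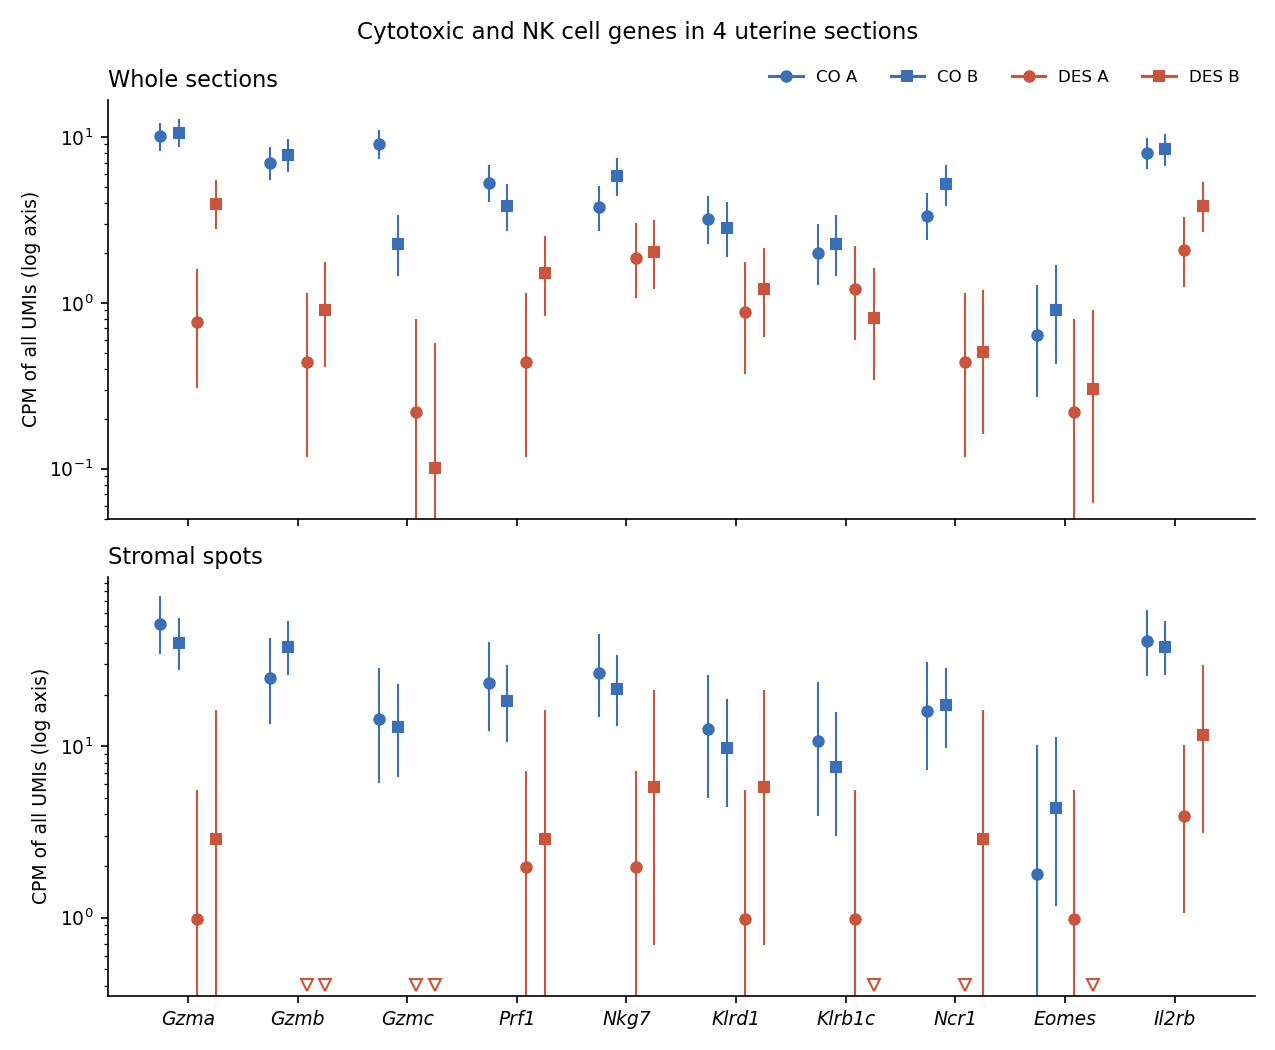
Level of each gene (CPM of all UMIs, log axis) in the 4 sections, over whole sections (top) and over stromal spots (bottom), with exact Poisson 95% intervals. Open triangles mark sections with no UMI of the gene, and intervals that reach below the axis are cut there. In both panels all DES points (red) lie below both CO points (blue) of the same gene, for example 0.439 and 0.911 CPM against 6.96 and 7.80 CPM for Gzmb in whole sections.

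The study named 1 stromal cluster in each section (number 8 for CO A, 6 for CO B, 4 for DES A and 5 for DES B), and the summed level of the 10 genes was highest there in both CO sections. That level was 223.8 CPM in CO A and 208.1 CPM in CO B, against 11.8 CPM for DES A and 31.8 CPM for DES B. Single genes could be higher in another cluster: Gzmc was at 32.6 CPM in cluster 3 of CO A against 14.3 CPM in its stroma, Eomes, Gzmb and Klrb1c had their highest CO A level in clusters with 1 to 3 of their UMIs, and Prf1 and Nkg7 had their highest CO B level in cluster 9, on 5 and 2 UMIs. The stromal spots of the 2 treatments also differed in other markers. The 6 stromal markers summed there to 5517 and 4080 CPM in CO and to 2922 and 1960 CPM in DES, and the 5 muscle markers to 888.1 and 700.2 CPM in CO and to 2705 and 8369 CPM in DES. There the B and plasma cell markers were at 5.37 and 447.7 CPM in CO and 1243 and 5358 CPM in DES, and the endothelial markers at 175.5 and 269.9 CPM in CO and 67.0 and 153.0 CPM in DES. Macrophage and dendritic cell markers were higher in DES stroma (3655 and 2994 CPM, against 1166 and 1954 CPM), and pericyte markers lower (132.0 and 245.4 CPM, against 476.3 and 514.9 CPM). The part of these markers in the stromal results was not tested. The members' stromal levels did not overlap between the groups for 10 of 10 genes, against 18.0% of 13294 genes lower in DES without overlap. For Eomes (1.79 and 4.34 CPM in CO) and Klrb1c (7.59 CPM in CO B) this order is uncertain. DES B had no stromal UMI of either, and 3 UMIs there would be 8.66 CPM. Of the 6 genes that passed the filter in stromal spots, 2 were called lower (Gzma and Gzmb), against 0.673% of 8914 genes, and none was called higher, against 0.796%.

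Gzma had 29 and 37 stromal UMIs in the CO sections and 1 in each DES section, a pooled ratio of 30.3 (8.07 to 255.8, edgeR adjusted p = 0.0231). Gzmb had 14 and 35 stromal UMIs in CO and none in DES. Its pooled CO level was 15.02 times a floor of 3 UMIs over the DES group, a value without counting error in CO. Gzmc, with 8 and 12 stromal UMIs in CO and none in DES, was at 6.13 times that floor in CO and was not tested. The stromal levels of these 3 granzymes did not overlap between CO and DES, as for all 10 members, against 18.0% of 13294 genes. Il2rb had 23 and 35 UMIs against 4 and 4 (edgeR adjusted p = 0.0657), Prf1 13 and 17 against 2 and 1 (0.0747), Nkg7 15 and 20 against 2 and 2 (0.0855), and Ncr1 9 and 16 against 0 and 1 (0.100). The sparsest members went the same way without a test: Klrd1 had 7 and 9 stromal UMIs against 1 and 2, Klrb1c 6 and 7 against 1 and 0, and Eomes 1 and 4 against 1 and 0. Without CO B only Gzma was called, since Gzmb was then too sparse to be tested, and without DES A no member was called (lowest edgeR adjusted p = 0.155). Over all genes those fits called 79 of 8783 and 2 of 8695 lower. When stroma was defined instead as the 15% of spots of each section with the highest stromal marker score, which shared 80.2% of the stromal spots named in CO A but 25.0% of those in DES B, no member was called in stromal spots (lowest edgeR adjusted p = 0.0819).

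In the spots outside the stromal cluster the same order held. The summed level was 44.3 and 35.4 CPM in CO and 8.15 and 14.6 CPM in DES, and 10 of 10 genes did not overlap, against 18.6% of 16849 genes. Gzmb (log2 fold change -3.13, SE 0.48, edgeR adjusted p = 0.0315) and Ncr1 (-3.08, SE 0.50, adjusted p = 0.0352) were called lower among 9 tested genes, against 3.41% of 13921 genes, and none was called higher, against 3.25%. Neither was called without DES A (lowest edgeR adjusted p = 0.1704) or without DES B (0.0817), in fits that called 32 of 14462 and 25 of 14487 genes lower.

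The named stromal cluster of each CO section was compared with the section's other spots, with the section as a block in the fit. Those other spots also held stroma, with the 6 stromal markers at 2324 and 2315 CPM. By these markers the named cluster was not always highest. In CO B clusters 3 (5590 CPM) and 7 (4926 CPM) exceeded it (4080 CPM). In DES B clusters 9 (5276 CPM) and 10 (2272 CPM) did (1960 CPM), and in DES A cluster 7 (3007 against 2922 CPM). Unless defined by marker score, stroma in these fits is the named cluster. In CO, 8 of the 9 tested genes were higher in stromal spots, against 6.47% of 13542 genes, and none was lower, against 5.50%. The log2 differences among these 8 ran from 2.11 for Klrd1 (SE 0.63, edgeR adjusted p = 0.0242) to 2.71 for Nkg7 (SE 0.47, adjusted p = 0.000125). Gzma was higher by 2.45 (SE 0.35, adjusted p = 5.72e-06) and Il2rb by 2.65 (SE 0.37, adjusted p = 4.57e-06). Gzmc, at 1.77 (SE 0.60), did not pass (edgeR adjusted p = 0.0501). Since the clustering itself used these counts, the p-values are likely too small. The fit without CO A called 5 of the genes, with 490 of all 14110 genes higher in stroma, and that without CO B called 3 (Gzma, Nkg7 and Il2rb), with 358 of all 14082.

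In the DES sections no member was called higher or lower in the stromal cluster by edgeR, against 7.16% of genes called higher and 5.66% called lower. Il2rb had the lowest adjusted p (0.184, log2 difference 1.47, SE 0.69), and 1 gene had an unadjusted p under 0.05. DESeq2 called none. The DES stromal spots held 12 and 11 UMIs of the 10 genes, which limits what these tests could detect. The difference between the DES and CO enrichments was called for none of the 9 genes by edgeR or DESeq2 (lowest edgeR adjusted p = 0.237, for Gzma at -2.46, SE 0.98, with 2 genes under an unadjusted p of 0.05), against 0.783% of genes called lower and 2.58% called higher. With stroma defined by marker score, Gzma and Prf1 were called higher in DES stroma, in a fit that called 700 of 13736 genes higher. The difference between the groups then stood above 0 for Gzma, Gzmb, Gzmc, Prf1 and Klrb1c and below 0 for Nkg7, Klrd1, Ncr1 and Il2rb, with no member called. An unequal concentration in stroma in CO and DES was thus not shown by these tests.

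Beyond the named stroma, the CO sections each had a further set of clusters with these genes. In CO A, cluster 3, whose leading genes were Gzmc, Bmp7 and Igfbp3, was at 131.4 CPM (115.5 to 148.9) and held 246 of the section's 654 UMIs. It contained 61 of the 113 Gzmc UMIs, 44 of 126 for Gzma and 39 of 87 for Gzmb. The 4 clusters with the highest muscle marker levels, 29499.6 to 46411.4 CPM, were lower: cluster 2 was at 4.82 CPM, cluster 4 at 11.9 CPM, cluster 6 at 17.2 CPM and cluster 9 at 23.5 CPM. In CO B the next level after the stromal cluster was that of cluster 7, at 115.6 CPM, followed by cluster 9 at 110.5 CPM, and cluster 4, with Cxcl14 and Bmp7 among its leading genes, was at 83.1 CPM. Of the 25 Gzmc UMIs of CO B, 12 lay in the stromal cluster, 7 in cluster 2 and 4 in cluster 4.

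In DES A the highest level was 31.7 CPM (18.5 to 50.7) in cluster 6, whose muscle marker level was 29582.6 CPM, followed by 15.01 CPM in cluster 7 and 11.8 CPM (6.11 to 20.6) in the stromal cluster, and these intervals overlap. In DES B cluster 10, of 44 spots led by Ccl21a and Vwf, genes of lymphatic and blood vessel endothelium, was at 147.4 CPM (97.2 to 214.5). It held 27 UMIs, 20 of them from the single spot described above. The stromal cluster of DES B was next, at 31.8 CPM (15.9 to 56.8).

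**Figure D4:**
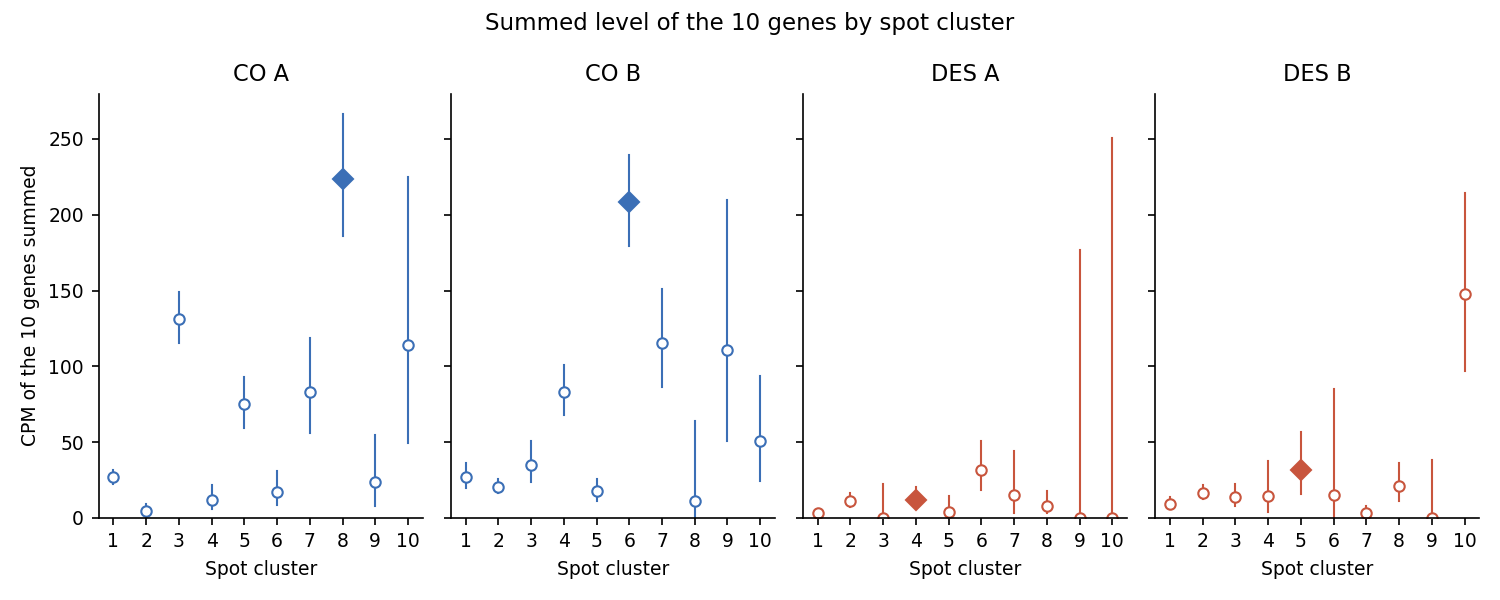
Summed level of the 10 genes (CPM) in each of the 10 spot clusters of the 4 sections, with exact Poisson 95% intervals. Filled diamonds are the clusters named stromal by the study, and cluster numbers are not shared between sections. The stromal diamonds stand highest in CO A (223.8 CPM) and CO B (208.1 CPM) and at 11.8 and 31.8 CPM in DES A and DES B, where cluster 10 of DES B reaches 147.4 CPM.

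The genes were scattered over many spots. At least 1 UMI of the 10 genes was found in 19.2% of CO A spots, 16.4% of CO B spots, 3.68% of DES A spots and 6.78% of DES B spots, and UMIs of at least 2 of the genes in 102, 96, 10 and 15 spots. In CO A, 75 spots had Gzma and 61 had Gzmb, with 19 spots in common. In CO B, 73 spots had Gzma and 69 Gzmb, with 8 in common.

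In the sections, T cell genes did not share the pattern of the 10 genes. The CD3 genes Cd3d, Cd3e and Cd3g together had 36 and 33 UMIs in the CO sections and 96 and 220 in the DES sections, or 2.88, 2.99, 10.5 and 22.3 CPM. There were 18.2 and 16.7 UMIs of the 10 genes for each CD3 UMI in CO A and CO B, and 0.813 and 0.682 in DES A and DES B. In stromal spots, where CO had 3 CD3 UMIs in each section and DES 19 in each, these ratios were 41.7 and 64.0 in CO and 0.632 and 0.579 in DES. Ptprc, the pan-leukocyte gene, had 116 and 173 UMIs in CO and 181 and 158 in DES, or 9.275, 15.68, 19.85 and 15.99 CPM. The 14 T cell markers summed to 18.3 and 23.7 CPM in CO and 51.2 and 84.9 CPM in DES, with Cd8a at 0 in CO A and Cd8b1 at 0 in CO B. Of these markers, 11 were tested in whole sections, all 11 had a log2 fold change above 0 and none was called (lowest edgeR adjusted p = 0.0530). In the single-cell lymphocytes T cell genes went both ways. Cd3d was at 92.1 and 107.4 CPM in CO and DES, Cd3e at 81.4 and 107.4 CPM, and Cd3g at 117.5 and 212.2 CPM. In contrast Cd28 was at 99.7 and 57.1 CPM, Cd4 at 18.2 and 6.04 CPM, Cd8b1 at 23.6 and 9.40 CPM, Cd247 at 22.2 and 14.8 CPM and Cd5 at 20.9 and 15.4 CPM.

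**Figure D5:**
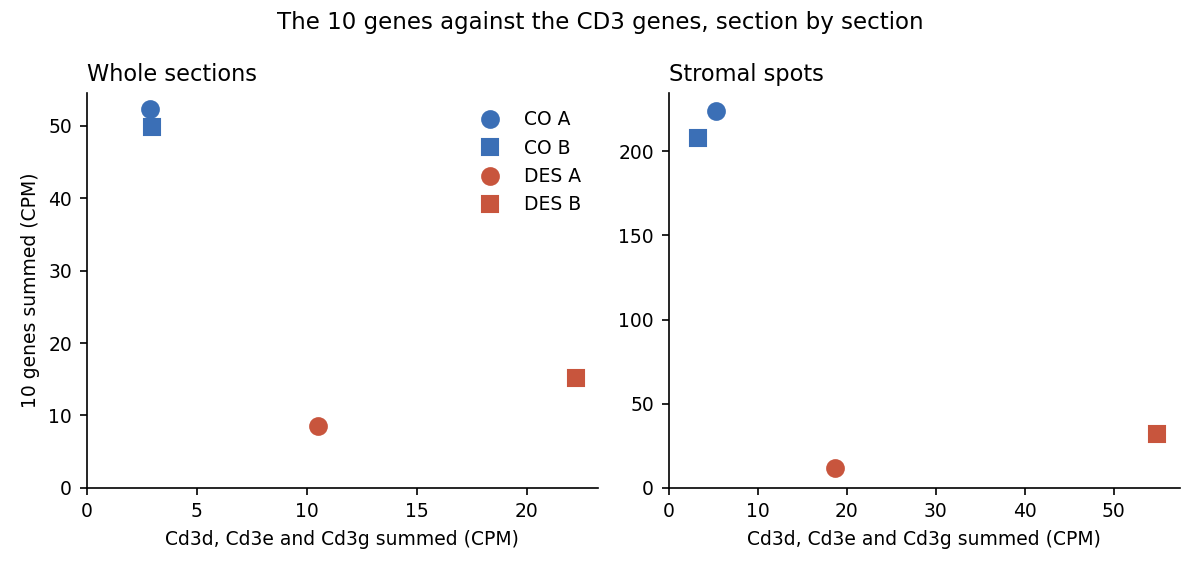
Summed level of the 10 genes (CPM, vertical axis) against that of Cd3d, Cd3e and Cd3g (CPM, horizontal axis), 1 point per section, for whole sections (left) and stromal spots (right). The CO sections lie high and to the left (52.3 and 49.9 CPM at 2.88 and 2.99 CPM of CD3 in whole sections) and the DES sections low and to the right (8.56 and 15.2 CPM at 10.5 and 22.3 CPM).

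Among the other granzymes, Gzmd, Gzme, Gzmf and Gzmg had UMIs in the CO sections and none in DES, where Gzmc had 3 in all, and Gzmn had none in any section. Gzmd had 86 UMIs in CO A, 14 in CO B and none in either DES section. Its pooled CO level was 26.9 times the floor of 3 UMIs over the DES group. Gzme had 33 and 5 UMIs in CO (10.2 times the floor), Gzmf 36 and 1 (9.95 times) and Gzmg 16 and 2 (4.84 times), with none in DES. These folds pool the CO sections, leave out counting error in CO and rest mostly on CO A. In CO B alone Gzmd was at 1.27 CPM, Gzme at 0.453 CPM, Gzmg at 0.181 CPM and Gzmf at 0.0906 CPM. The last was below the DES floor of 0.158 CPM. Like Gzmc, all 4 had far fewer UMIs in CO B than in CO A, and cluster 3 of CO A held 50% of the Gzmd, 60.6% of the Gzme, 77.8% of the Gzmf and 75.0% of the Gzmg UMIs of that section. Gzmc and Gzmd shared 16 spots in CO A, 29.6% of the spots with Gzmc and 35.6% of those with Gzmd. In CO B they shared 1 spot, 5.56% of the 18 with Gzmc and 7.69% of the 13 with Gzmd. Gzmm went the other way, with 18 and 2 UMIs in CO and 48 and 43 in DES, and Gzmk had few UMIs, all in the DES sections. Of the 7 other granzymes 2 could be tested in whole sections, and neither was called. In lymphocytes Gzmd was at 16.5 CPM in CO and 9.40 CPM in DES, and Gzme and Gzmm were each at or below 4.70 CPM.

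Of 31 other NK receptors and adaptors in the spatial tables, 9 were tested in whole sections and 1 was called lower in DES, against 2.63% of all genes. That gene was the integrin chain Itga1 (CD49a), which marks tissue-resident NK cells but is also found on muscle and other cells. It had 472 and 487 UMIs in CO and 118 and 122 in DES (log2 fold change -1.90, SE 0.18, edgeR adjusted p = 0.0212). The list as a whole did not go the way of the 10 genes. The median log2 fold change of the 9 tested genes was 0.32. All 31 genes summed to 227.5 and 321.4 CPM in CO and 563.4 and 371.5 CPM in DES. Within CO sections 5 of 11 tested genes of this list were higher in stroma, against 6.47% of all genes, and none lower, against 5.50%: Klrg1, Fcgr3, Tyrobp, Fcer1g and Cd7, with log2 differences from 1.16 for Fcgr3 to 2.97 for Klrg1. Tyrobp and Fcer1g, signalling adaptors that macrophages share with NK cells, were higher in DES than in CO lymphocytes (Tyrobp 1133 and 1995 CPM, Fcer1g 643.8 and 1165 CPM), as was the Fc receptor Fcgr3 (71.2 and 216.9 CPM). Other receptors were lower in the DES lymphocytes, among them Klra7 at 94.8 and 20.1 CPM, Klre1 at 92.1 and 29.5 CPM, and Klrk1 (NKG2D) at 88.1 and 50.4 CPM. The receptors Cd244, at 48.1 and 85.9 CPM, and Cd226, at 9.79 and 19.5 CPM, were higher there, and Klrc1 was at 7.56 and 8.06 CPM.

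Of 11 transcription factors, 9 were tested in whole sections and none was called, by edgeR. Runx3, a factor of cytotoxic lymphocytes and also of epithelium, had 5 and 13 UMIs in CO and 110 and 62 in DES. It was called higher in DES in the spots outside the named stromal cluster (log2 fold change 3.53, SE 0.58, edgeR adjusted p = 0.0362). It was 1 of 9 factors tested there, against 3.25% of all genes called higher. Within CO sections Prdm1 (log2 difference 1.46, SE 0.39) and Ets1 (1.62, SE 0.33), 2 of 10 tested factors, were higher in stroma, against 6.47% of all genes. In lymphocytes the levels of Runx3 were 147.7 CPM in CO and 217.5 CPM in DES, those of Id2 253.6 and 294.1 CPM, those of Ets1 144.1 and 126.9 CPM, and those of Tbx21, the T-box partner of Eomes, 14.2 and 12.1 CPM. Of 31 genes for cytokines, chemokines, their receptors and granule products, 25 were tested in whole sections, 2 were called higher in DES, against 2.67% of all genes, and 1 lower, against 2.63%. The chemokine Ccl3 had 10 and 10 UMIs in CO and 89 and 56 in DES (log2 fold change 2.95, SE 0.44, edgeR adjusted p = 0.0351), and the tissue-residency receptor Cxcr6 had 11 and 14 against 59 and 83 (2.58, SE 0.40, adjusted p = 0.0380). Cxcl12, the ligand of Cxcr4, was lower (-0.99, SE 0.17, adjusted p = 0.0446). In CO stroma 8 of 24 tested genes of this list were higher than in the other spots, against 6.47% of all genes, among them Il15, the growth factor of NK cells (1.58, SE 0.43, edgeR adjusted p = 0.0112), the chemokines Ccl5 (2.41, SE 0.33) and Cxcl10 (2.71, SE 0.55), and Xcl1 (1.95, SE 0.62), with Il2rg, Cxcr3, Srgn and Ctsw, while Cxcl16 was lower (-0.81, SE 0.22). In whole sections Il15 had 111 and 75 UMIs in CO and 63 and 86 in DES, which overlap. Over the lymphocytes of both libraries together, the 3 genes of this list with most UMIs were Srgn, the proteoglycan that holds granule proteins (1012 CPM in CO and 1746 CPM in DES), Ccl5 (658.4 and 858.7 CPM) and Ccl4 (266.0 and 506.9 CPM).

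Genes with the pattern most like that of the 10 genes were listed by correlation, as a description. Over 14 groups of at least 50 cells (cell type by library, which share 2 libraries), the 10 genes with the highest Pearson r of log2(CPM + 1) with the summed members were Cd7, Klrg1, Tbx21, Gzmd, Ly6c2, Tcrg-C4, Cd3d, Xcl1, Sh2d2a and Spib (r from 0.980 to 0.985). Most are genes of NK or T cells, and each was at or below 2.84 CPM in every group other than lymphocytes. Over the 40 spot clusters of the 4 sections, which differ in depth (r of 0.22 between the members' level and the clusters' UMIs), the first was Stat2 (r = 0.82), followed by Vstm4, Ifit3 and Isg15, and the others were Rpl13, Rpl36a, Rtp4, Dapk2, the agouti gene and Tmem252. Stat2, Ifit3, Isg15 and Rtp4 are genes of the interferon response. Isg15 was at 142.6 and 121.5 CPM in CO and 23.1 and 33.2 CPM in DES, and Ifit3 at 25.0 and 29.5 CPM in CO and 2.63 and 5.77 CPM in DES. The ranking pooled CO and DES clusters, so genes lower in DES, as the members are, were favoured. These group levels therefore follow in part from the selection.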

How the data were processed

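Single-cell RNA sequencing of 2 libraries and Visium spatial sequencing of 4 sections were taken as the authors deposited them, as raw UMI counts per gene and cell or spot. Per the labels, the submitters' processing notes name bcl2fastq 2.20.0.422, Cell Ranger 3.0.1, Space Ranger 1.2.2 and mm10. Cell types and spot clusters were the authors' own annotations, and the study's methods describe a search for swapped barcodes and the removal of doublets. Whether the deposited table precedes that removal is not given in the sources used here. Of the annotation's cell rows, 350 had no counts (124 of them named lymphocytes) and were left out.

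UMIs were summed per cell type or section and scaled to counts per 1000000 (CPM) of all genes. Sections were tested with edgeR 4.0.16 (quasi-likelihood test, TMM factors, filterByExpr, Benjamini-Hochberg adjustment over all genes tested, threshold 0.05), with DESeq2 1.42.0 as an alternative, in R 4.3.3. Fold changes are DES against CO on the log2 scale, and SE is the log2 fold change divided by the square root of F. An exact permutation test of 2 against 2 sections cannot go below 0.333 and was not used. For pooled counts, intervals are exact (Poisson, Clopper-Pearson or conditional binomial, 95%) and cover counting error only. A group with no UMI was given a floor of 3 UMIs. Single-cell differences have no test. Shares used cells thinned to 2000 UMIs. The code was tested on simulated counts with known changes.

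The members and all gene lists were chosen with earlier results of these data known. Named genes were the members, the 10 most correlated genes in each assay, and list genes past the threshold in a section comparison or among the 3 highest of a list in lymphocytes. Other list genes are named only as examples and were chosen after their values were seen. Positions are from GENCODE models on GRCm38 and promoters from RefSeq. Alternatives were another test, other size factors, no filter, each section left out, a replicate block, stroma by marker score, other cell filters, denominators, populations and thinning depths, other UMI thresholds and a larger pseudocount. Those without shared barcodes, without immunoglobulin genes in the totals and without the DES B spot were chosen after seeing the data.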

Additional observations from a re-analysis of the deposited data

Results flagged for a closer look

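Stromal enrichment differed between DES and CO for 4 genes of the lists read beside the 10 genes, by the test of the difference itself (edgeR's quasi-likelihood test, Benjamini-Hochberg adjustment over 13542 genes, 2 sections per group). The lists held 3, 11, 10 and 24 tested genes. Over all genes 0.783% were called lower in DES and 2.58% higher. Tyrobp was less enriched in DES stroma by a log2 difference of -1.39 (SE 0.26, edgeR adjusted p = 0.000854), with an enrichment of 1.59 in CO and 0.20 in DES. Fcer1g showed the same at -1.44 (SE 0.28, edgeR adjusted p = 0.00115), with 1.74 in CO and 0.30 in DES, and Ccl5 at -1.88 (SE 0.53, edgeR adjusted p = 0.0404), with 2.41 in CO and 0.53 in DES. Itga1 went the other way, at 1.85 (SE 0.49, edgeR adjusted p = 0.0252), with -0.65 in CO and 1.21 in DES. None of the 10 members was among them. The clusters were formed on these same counts, so these p-values are likely too small. Across the alternative settings, values of the 4 genes lost the threshold 10 times. The summed macrophage and dendritic cell markers, a cell type that also expresses Tyrobp and Fcer1g, were at 1166 and 1954 CPM in CO stroma against 476.0 and 861.5 CPM in the other CO spots, and at 3655 and 2994 CPM in DES stroma against 2898 and 3511 CPM in the other DES spots. The muscle markers, of a tissue that also expresses Itga1, were at 888.1 and 700.2 CPM in CO stroma against 13926.9 and 15397.1 CPM in the other CO spots, and at 2705 and 8369 CPM in DES stroma against 3124 and 3279 CPM in the other DES spots. The part of either list in these values was not tested.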

How the results depend on the processing

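The number of members called in whole sections was 2, and 6 with DESeq2, which called 954 of all 14825 genes lower. Leaving out sections gave 0 to 4 in whole sections, 0 to 2 of a main 2 in stromal spots, 0 to 3 of a main 2 in other spots and 3 to 9 of a main 8 for the CO enrichment. The highest counts in whole sections and in other spots came from the fits without CO A and without CO B, in that order. Each held 1 CO section and called a larger share of all genes lower than the main fit. The counts of 0 came from fits with 1 DES section, which called a smaller share of all genes lower. These ranges are therefore not read as more or fewer members lower in DES. In stromal spots no filter on low counts gave 7, with 346 of all 16195 genes lower, and stroma by marker score 0, with 12 of 10023 lower. In the CO enrichment DESeq2 gave 5, with 409 of all 11367 genes higher against 876 of 13542, and in the DES enrichment stroma by marker score gave 2 against 0, with 700 of 13736 against 970 of 13542. Same-lettered sections did not deviate together (correlation of deviations -0.03), and a replicate block gave 2 calls in whole sections (Gzmb and Gzmc), 6 in stromal spots and 3 in other spots, in fits that called 229 of 14098, 200 of 8914 and 557 of 13921 genes lower. Over all genes the calls in whole sections ran from 3 (without DES B) to 2819 (without CO A) around 747, and in stromal spots from 40 to 714 around 131.

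Of 610 values of single genes, 480 kept their direction and side of the threshold, 97 lost the threshold, 25 gained it and 8 changed direction, all 8 in the difference of stromal enrichment. With stroma by marker score that log2 difference was 0.92 for Gzma, 0.45 for Gzmb, 0.92 for Gzmc, 2.25 for Prf1 and 0.74 for Klrb1c. Without DES B it was 0.35 for Prf1, -1.88 for Klrd1 and -6.55 for Ncr1, and without DES A it was -1.51, 0.43 and 0.59. The cause was not tested.

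In lymphocytes the log2 ratio of the summed members was -0.89 as a mean over cells, -0.62 over all cells and -0.96 without immunoglobulin genes, against -0.77. Asking for at least 2 UMIs put 10.2% of CO lymphocytes in the class with an NK receptor alone and 0.236% in the class with both, and without thinning 5.91% were in the class with both. The 10 most correlated genes kept 6 of their number in each assay under log2(CPM + 10). The limits are 2 sections per group, 1 library per treatment, few UMIs per gene in DES sections, and clusters formed on the counts tested.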
